A study of Mus musculus with 12 samples.

Results

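Islet macrophage and cytokine genes were followed here: 37 genes out of 54532 listed, chosen by their symbols. They comprised 21 macrophage and myeloid markers, 5 chemokines, 4 cytokine genes (one of them a receptor) and 7 genes of NF-kappaB signalling and its targets. All 37 passed the filter on low counts, and each had counts in every library except Il6, which was at 0 in 1 library. RNA was sequenced from whole pancreatic islets, the small endocrine organs in which beta cells secrete insulin, of male C57BL/6 mice labelled as 40 weeks old. Mice with a pancreatic beta-cell-selective knockout of Sirt3 (KO), a mitochondrial deacetylase, and wild type mice (WT) were kept on a standard diet with 6.2% fat (STD) or on a high fat diet in which fat supplied 60% of the calories (HFD). Each of the 4 groups, STD KO, STD WT, HFD KO and HFD WT, had 3 libraries. High fat feeding lasted 36 weeks in both genotypes. It followed 6, 5 and 6 weeks of standard food in HFD KO 1, 2 and 3 and 4 weeks in all HFD WT libraries, so genotype and this earlier period cannot be told apart under the high fat diet. In HFD KO the 2 feeding periods together exceed the labelled age of 40 weeks. Whether HFD KO and HFD WT mice were of the same age is therefore uncertain. The Cre line that removed Sirt3 is not named in the labels, and Sirt3 stays intact in the other cells of the islet, macrophages included, as far as the knockout is selective. Whether each library came from its own animal is not stated, so p-values measure the spread between these libraries.

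Resident macrophages live inside healthy islets, next to beta cells and vessels, and are known for clearing debris and sensing insulin granule content. In obesity they increase in number in mouse islets, and monocytes are drawn to tissues by chemokines such as CCL2, acting on CCR2. Cytokines such as interleukin-1 beta and tumour necrosis factor act on receptors of beta cells, where they switch on NF-kappaB, a transcription factor held inactive by the inhibitor encoded by Nfkbia. NF-kappaB in turn switches on chemokines, adhesion molecules and its own inhibitors.

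NF-kappaB binds short DNA motifs upstream of its targets, and the start of some member genes carries such letters. RefSeq promoters (GRCm38.p6) were matched by symbol for 26 of the 37 genes, which had 28 promoters. The kappaB letters searched on both strands were GGG, any 2 bases and TTTCC, found within 250 bases before the start in 464 of 32851 promoters (1.41%) and in 5 of the 28 member promoters: Cxcl1, Cxcl2, Il6, Nfkbia and Tnfaip3. The letters GAGGAAGT, a core bound by the macrophage factor PU.1 (encoded by Spi1), were found in 802 promoters (2.44%) and in 1 member promoter, C1qc. Each of the 5 sequences shown is the 250 bases before the start, 5' to 3' on the gene's strand, chosen as the chemokine, cytokine and complement genes with a match and, for the NF-kappaB list, the inhibitor Nfkbia, with matches in capitals. Tnfaip3 has 1 match and is not printed. A match describes letters and not a site in use, and the motifs do not overlap one another in these windows. Cxcl1 and Cxcl2 each hold 2 kappaB matches, on chr5:90890995-90891244 and chr5:90903649-90903898, plus strand. Il6 (chr5:30012864-30013113, plus strand) and Nfkbia (chr12:55492648-55492897, minus strand) hold 1 each. C1qc (chr4:136892915-136893164, minus strand) holds the PU.1 letters. The start is that of RefSeq. By the GENCODE coordinates given for the genes here, C1qc (136889804 to 136893065) and Cxcl2 (from 90903871) reach into their own windows, as do Cxcl1 and Tnfaip3.
Cxcl1: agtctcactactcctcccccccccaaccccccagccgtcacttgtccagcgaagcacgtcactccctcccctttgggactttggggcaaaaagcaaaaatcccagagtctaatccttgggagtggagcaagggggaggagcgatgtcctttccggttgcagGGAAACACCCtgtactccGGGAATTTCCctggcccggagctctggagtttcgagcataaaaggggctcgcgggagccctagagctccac
Cxcl2: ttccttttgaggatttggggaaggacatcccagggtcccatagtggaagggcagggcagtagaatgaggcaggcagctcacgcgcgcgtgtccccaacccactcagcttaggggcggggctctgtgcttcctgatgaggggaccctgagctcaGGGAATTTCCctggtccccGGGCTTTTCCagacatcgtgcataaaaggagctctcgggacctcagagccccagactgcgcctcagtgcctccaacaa
Il6: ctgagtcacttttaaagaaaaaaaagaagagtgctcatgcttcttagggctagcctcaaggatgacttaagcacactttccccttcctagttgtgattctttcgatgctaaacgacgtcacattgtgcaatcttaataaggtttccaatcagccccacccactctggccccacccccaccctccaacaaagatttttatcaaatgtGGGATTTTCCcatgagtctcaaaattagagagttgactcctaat
Nfkbia: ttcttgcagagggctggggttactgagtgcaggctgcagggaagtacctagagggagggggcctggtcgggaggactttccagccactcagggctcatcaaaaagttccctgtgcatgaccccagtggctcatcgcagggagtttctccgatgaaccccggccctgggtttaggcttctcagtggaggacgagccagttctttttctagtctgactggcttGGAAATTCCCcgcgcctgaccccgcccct
C1qc: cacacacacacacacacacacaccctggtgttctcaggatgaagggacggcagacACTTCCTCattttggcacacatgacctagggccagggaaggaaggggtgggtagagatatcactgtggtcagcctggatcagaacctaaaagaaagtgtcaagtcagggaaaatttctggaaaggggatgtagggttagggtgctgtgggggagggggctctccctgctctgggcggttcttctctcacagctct

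Library totals were 16037709 to 20864920 counts, of which the insulin genes took 19.7% to 33.5%. Sirt3 was lower in STD KO libraries, at 7.29, 6.07 and 6.69 counts scaled to the library total as CPM, than in STD WT libraries, at 9.57, 10.9 and 10.9 CPM. Under the high fat diet it stood at 7.20, 10.4 and 6.65 CPM in HFD KO and at 10.2, 9.48 and 11.6 CPM in HFD WT, so the library labelled HFD KO 2 lay inside the WT range, and Sirt3 did not pass the threshold under either diet (edgeR, adjusted p = 0.156 and 0.363). Every call was therefore repeated without HFD KO 2, and without it and STD WT 3 together, as both stood apart in earlier results of these data. Which exons were deleted is not given, and cells other than beta cells keep the gene, so this check of the labels is limited.

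The 21 markers were all detected. Levels were set side by side per length, in FPKM. Il1r1 had 50.2 ± 21.5 FPKM in HFD KO and 120 ± 20.8 FPKM in HFD WT, and 55.1 ± 12.3 FPKM in STD KO and 103 ± 13.1 FPKM in STD WT (SD, n = 3 each), the highest mean of the 37 in both WT groups and below Lyz2, C1qa and Nfkbia in both KO groups. The medians over the 12 libraries were 77.7 FPKM for Lyz2, 73.5 for C1qa, 70.0 for Nfkbia and 38.7 for Ctss, and the first 3 lay within each other's spread over libraries, which for Lyz2 was 19.7 to 155 FPKM. The lowest medians were those of Ccr2 (0.869 FPKM), Trem2 (0.859), Mertk (0.857), Il6 (0.397), Itgam (0.308) and Cd163 (0.0793). Lyz2 encodes the lysozyme of macrophages and shares sequence with Lyz1, so its level is uncertain to the extent that reads were split between them. Ctss, cathepsin S, serves antigen presentation, and C1qa to C1qc encode the 3 chains of complement C1q, which macrophages make.

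Loss of Sirt3 from beta cells was examined first under the high fat diet, where most of the calls lay. Of the 37 genes, 6 rose and 1 fell in HFD KO against HFD WT islets in edgeR's quasi-likelihood test (adjusted p under 0.05 over 16076 genes). Of all genes tested 3.9% rose and 3.5% fell, together 7.4%. At an unadjusted p under 0.05 there were 16 of the 37, against 24.3% of all genes. Libraries did not overlap for 15 genes that were higher in every HFD KO library, against 13.2% of all genes, and for 1 that was lower, against 8.81%. Mrc1, Trem2, C1qb, C1qc and Fcer1g were the macrophage genes among those that rose, Ccl2 the chemokine, and Il1r1, the interleukin-1 receptor, was the gene that fell. The fitted log2 fold change was positive for 34 of the 37 genes, with a median of 0.80, against 49.8% of all genes and a median of −0.002. All 5 chemokines and 21 of 21 markers had a positive value, with medians of 2.21 and 0.64. For C1qa and Spi1 the sign turned with offsets corrected for gene length, which gave 32 of 37 positive. With these offsets the median was −0.115 over all genes and 0.543 over the 37 genes. Without HFD WT 1, 28 of 37 genes and 17 of 21 markers were positive.

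Mrc1, the mannose receptor of tissue macrophages (chromosome 2, 14229392 to 14332057, mm10), had 7.49, 3.93 and 13.6 CPM in HFD KO libraries, against 0.911, 2.13 and 1.57 CPM in HFD WT libraries. Every HFD KO library lay above every HFD WT library. Its log2 fold change was 2.42 (SE 0.45, edgeR adjusted p = 0.00757). Trem2 (chromosome 17, 48346401 to 48354147), a lipid-sensing receptor of macrophages, had 6.35, 3.55 and 4.42 CPM in HFD KO and 1.34, 0.851 and 0.842 CPM in HFD WT. Here too the groups were apart, with a log2 fold change of 2.22 (SE 0.39, edgeR adjusted p = 0.00535). The calls of Mrc1, Trem2 and C1qb held in all 21 alternative fits, those without HFD KO 2 included.

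C1qb (chromosome 4, 136880129 to 136886187) had 40.2, 25.9 and 33.6 CPM in HFD KO and 14.9, 18.7 and 16.3 CPM in HFD WT. C1qc, next to it on the same strand (136889804 to 136893065), had 27.4, 19.7 and 28 CPM in HFD KO and 11.8, 11 and 12.1 CPM in HFD WT. Both were higher in every HFD KO library, with log2 fold changes of 1.01 (SE 0.19, edgeR adjusted p = 0.00896) and 1.1 (SE 0.26, edgeR adjusted p = 0.0245). C1qa (136895917 to 136898803), the third chain, had 72.1, 69.8 and 84.8 CPM in HFD KO and 68.2, 73.7 and 70.5 CPM in HFD WT, and the groups overlapped (edgeR adjusted p = 0.715, log2 fold change 0.09, SE 0.13). The ratio of C1qa to C1qb in FPKM was 1.88, 2.82 and 2.64 in HFD KO and 4.79, 4.12 and 4.53 in HFD WT. It was 4.96, 5.20 and 3.77 in STD KO and 4.95, 4.38 and 5.08 in STD WT, so the HFD KO libraries stood apart from the other 9.

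Fcer1g (chromosome 1, 171229572 to 171234365), the signalling chain shared by Fc receptors, had 15.2, 14.3 and 11.1 CPM in HFD KO and 6.28, 9.24 and 6.79 CPM in HFD WT. All HFD KO libraries were higher, with a log2 fold change of 0.89 (SE 0.21, edgeR adjusted p = 0.0229). The calls of C1qc and Fcer1g depended on single libraries: C1qc had an adjusted p of 0.114 without HFD KO 1, and 0.0564, 0.0602 and 0.0957 without HFD WT 1, 2 and 3 in edgeR. Fcer1g had 0.116 and 0.0801 without HFD KO 1 and 2, and 0.0833 and 0.121 without HFD WT 1 and 3 in edgeR. Offsets corrected for gene length also ended both calls (edgeR adjusted p = 0.105 and 0.213). Fcer1g was lost as well without STD WT 3 and HFD KO 2 together (edgeR adjusted p = 0.0773) and with the groups compared alone (edgeR adjusted p = 0.114).

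**Figure D1:**
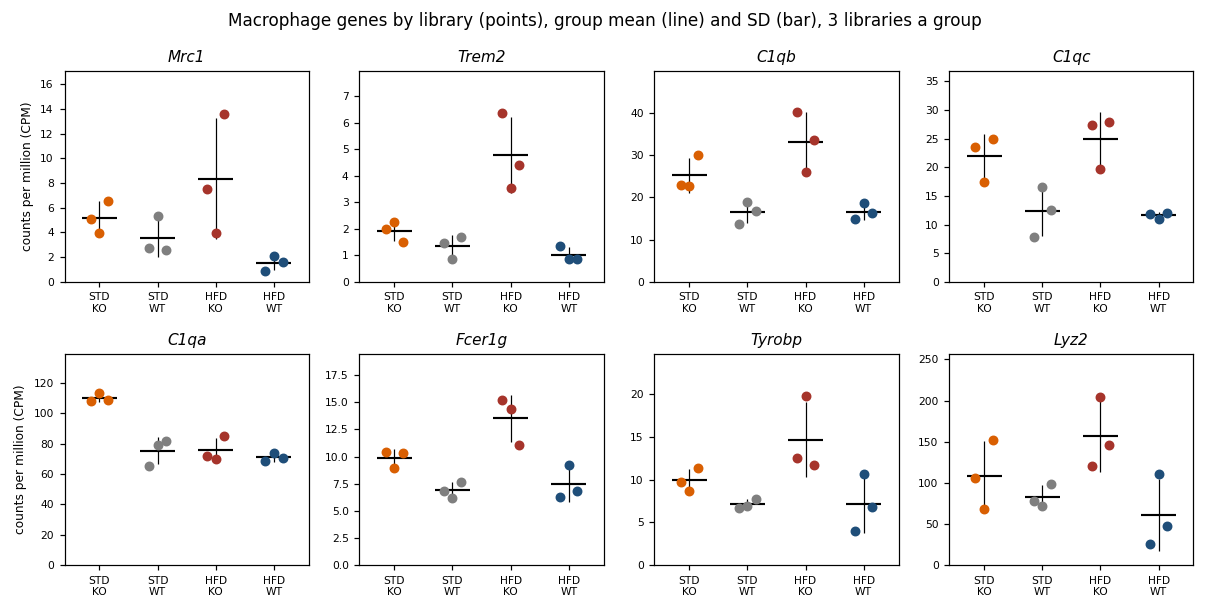
CPM (y axis, linear from 0) of 8 macrophage genes in each library of the 4 groups; points are libraries, lines group means and bars SD (3 libraries a group). Mrc1, Trem2, C1qb, C1qc and Fcer1g are higher in each HFD KO library than in each HFD WT library, while C1qa overlaps at 69.8 to 84.8 CPM in HFD KO and 68.2 to 73.7 CPM in HFD WT.

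Lyz2 and Tyrobp, the adaptor that carries the signal of TREM2, did not pass in the fit without a block. Lyz2 had 120, 204 and 146 CPM in HFD KO and 25.9, 110 and 47.5 CPM in HFD WT, and Tyrobp had 12.5, 19.8 and 11.7 CPM in HFD KO and 3.93, 10.7 and 6.74 CPM in HFD WT. Neither gene's groups overlapped. Their log2 fold changes were 1.41 (SE 0.44, edgeR adjusted p = 0.0814) and 1.1 (SE 0.31, edgeR adjusted p = 0.0574). With the library number as a block they passed (1.57, edgeR adjusted p = 0.00607, and 1.12, edgeR adjusted p = 0.0207). In that fit 3.88% of all genes rose.

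The pan-macrophage markers that define the cell type did not pass, either without the block or with it. With the block the edgeR adjusted p was 0.167 for Cd68, 0.0635 for Adgre1 and 0.399 for Csf1r. Values that follow are those of the fit without a block. Cd68, Adgre1 (F4/80) and Csf1r, the receptor of macrophage growth factors, had log2 fold changes of 0.95, 0.91 and 0.40 (edgeR adjusted p = 0.143, 0.0989 and 0.372), and the groups overlapped for each. Adgre1 had 12.5, 5.99 and 13.0 CPM in HFD KO and 5.94, 4.01 and 6.57 CPM in HFD WT. Of 21 alternative fits, 2 called Adgre1 (among them DESeq2, adjusted p = 0.0499), 1 called Cd68 and 0 called Csf1r. Ctss, Itgax (CD11c) and Spi1 had log2 fold changes of 0.15, 0.11 and 0.11, with edgeR adjusted p from 0.790 to 0.929. The other markers were Cd14, the lipopolysaccharide co-receptor, Aif1, Itgam (CD11b), Cx3cr1, the fractalkine receptor, Ccr2, Mertk, a receptor for apoptotic cells, and the scavenger receptor Cd163. Their log2 fold changes lay between 0.40 and 2.02 (edgeR adjusted p from 0.267 to 0.689). The highest, that of Cd163, rested on HFD KO 3: its counts were 2, 1 and 34 in HFD KO and 1, 4 and 3 in HFD WT. Cx3cr1 was higher in every HFD KO library, at 5.16, 5.55 and 6.81 CPM in HFD KO and 3.26, 4.80 and 4.94 CPM in HFD WT. In whole islets fewer cells of a type and less RNA per cell cannot be told apart.

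The markers varied between libraries of one group. Summed over the 21 markers, the level was 444, 492 and 498 CPM in HFD KO and 199, 419 and 267 CPM in HFD WT, and 438, 359 and 522 CPM in STD KO and 322, 313 and 327 CPM in STD WT. HFD WT 1 was the lowest of the 12 libraries for 20 of the 37 genes, and HFD WT 2 the highest of its group for 28. Without HFD WT 2 the genes that rose numbered 10 instead of 6, and without HFD WT 1, HFD WT 3 or HFD KO 1 they numbered 3; without STD WT 3 and HFD KO 2 together they numbered 4. Lymphocyte markers, another source of immune RNA in an islet preparation, summed to 1070 to 1414 CPM in HFD KO and 39.4 to 2395 CPM in HFD WT, lowest in HFD WT 1 and highest in HFD WT 2. Markers of stellate cells and fibroblasts had a median log2 fold change of 0.88 in HFD KO against HFD WT, above that of the 21 macrophage markers, with 10 of 12 positive and 0 called, and summed to 301 to 803 CPM in HFD KO and 223 to 421 CPM in HFD WT. Of the adipocyte genes 3 of 3 tested were positive (median 0.79), and the list summed to 34.2 ± 2.48 CPM in HFD KO and 19.9 ± 5.27 CPM in HFD WT (SD, n = 3 each), without overlap. The part of these cell types in the result was not tested.

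**Figure D2:**
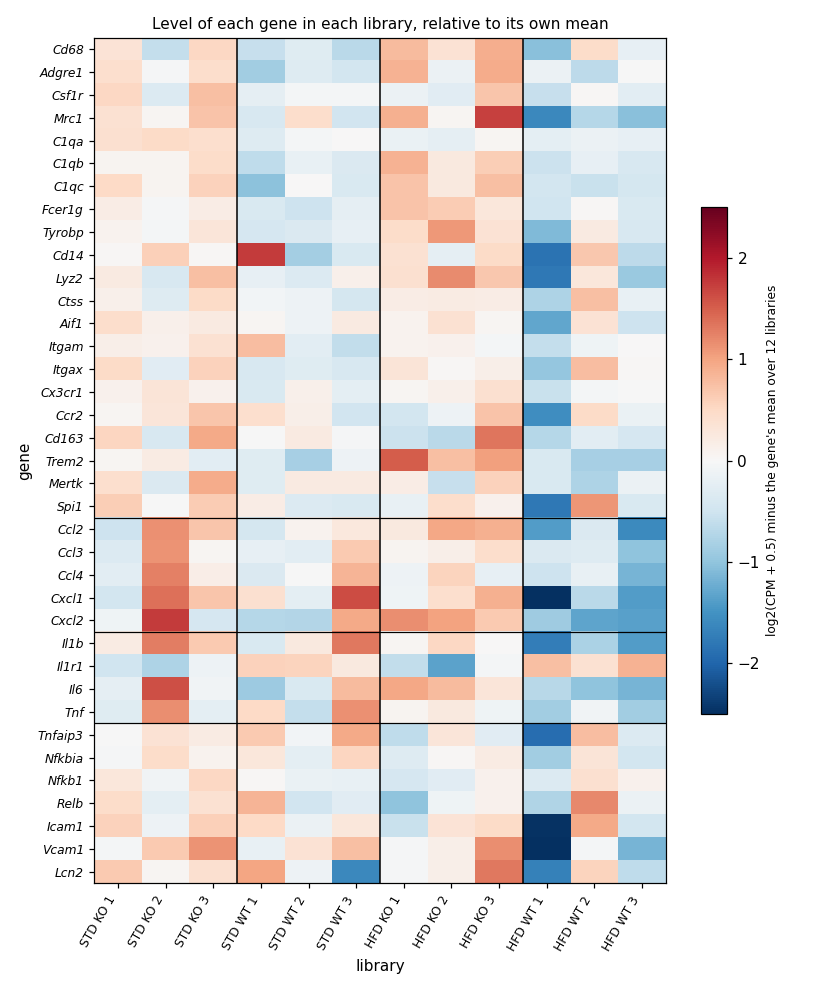
Deviation of each gene in each library from the gene's own mean over the 12 libraries, on the log2(CPM + 0.5) scale (colour, saturating at the ends of the scale); columns are libraries in the order STD KO, STD WT, HFD KO, HFD WT and rows the 37 genes. HFD WT 1 is the lowest of 12 for 20 of the 37 genes.

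Chemokines, which draw monocytes (Ccl2, Ccl3, Ccl4) and neutrophils (Cxcl1, Cxcl2), had 1 call, Ccl2, among 5 genes. Ccl2 (chromosome 11, 82035571 to 82037453) had 2.10, 3.80 and 3.59 CPM in HFD KO and 0.335, 1.22 and 0.225 CPM in HFD WT. All HFD KO libraries were higher, and the log2 fold change was 2.45 (SE 0.66, edgeR adjusted p = 0.0459). This call is close to the threshold: it was lost in 7 of 12 fits with a library left out, at edgeR adjusted p of 0.0663 without STD KO 3, 0.0682 and 0.0589 without STD WT 2 and STD WT 3, 0.0894 and 0.125 without HFD KO 1 and 2, and 0.132 and 0.174 without HFD WT 1 and 3. It was also lost without STD WT 3 and HFD KO 2 together (edgeR adjusted p = 0.141) and with the groups compared alone (edgeR adjusted p = 0.0933).

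Cxcl2, with 8.79, 7.79 and 6.03 CPM in HFD KO and 1.73, 1.15 and 1.12 CPM in HFD WT, did not overlap between the groups either, at a log2 fold change of 2.49 (SE 0.75, edgeR adjusted p = 0.0691). Leaving out STD KO 2 or STD WT 3 brought it under the threshold (edgeR adjusted p = 0.0227 and 0.0417). Cxcl1 stood at 3.46, 5.24 and 7.38 CPM in HFD KO and at 0.240, 2.19 and 1.12 CPM in HFD WT, likewise without overlap (edgeR adjusted p = 0.105, log2 fold change 2.21, SE 0.77). Ccl3 and Ccl4 had smaller log2 fold changes of 0.85 and 0.80 (edgeR adjusted p = 0.282 and 0.387). Of these genes, Cxcl1 and Cxcl2 carry the kappaB letters in the promoters printed above, as does Il6.

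Il1b, the gene of interleukin-1 beta, had 9.24, 12.9 and 8.94 CPM in HFD KO and 2.35, 4.98 and 3.09 CPM in HFD WT. Each HFD KO library was higher, with a log2 fold change of 1.62 (SE 0.49, edgeR adjusted p = 0.0710); with the block it passed (1.63, edgeR adjusted p = 0.0352), and likewise without STD WT 1 or STD WT 3 (edgeR adjusted p = 0.0434 and 0.0326). Il6 had few counts: 30, 23 and 17 in HFD KO libraries and 4, 1 and 0 in HFD WT libraries. The groups were apart, at a fitted log2 fold change of 3.82 (SE 1.22, edgeR adjusted p = 0.0808), which at such counts depends on the fit. Tnf overlapped between the groups (edgeR adjusted p = 0.427, log2 fold change 0.78, SE 0.57).

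**Figure D3:**
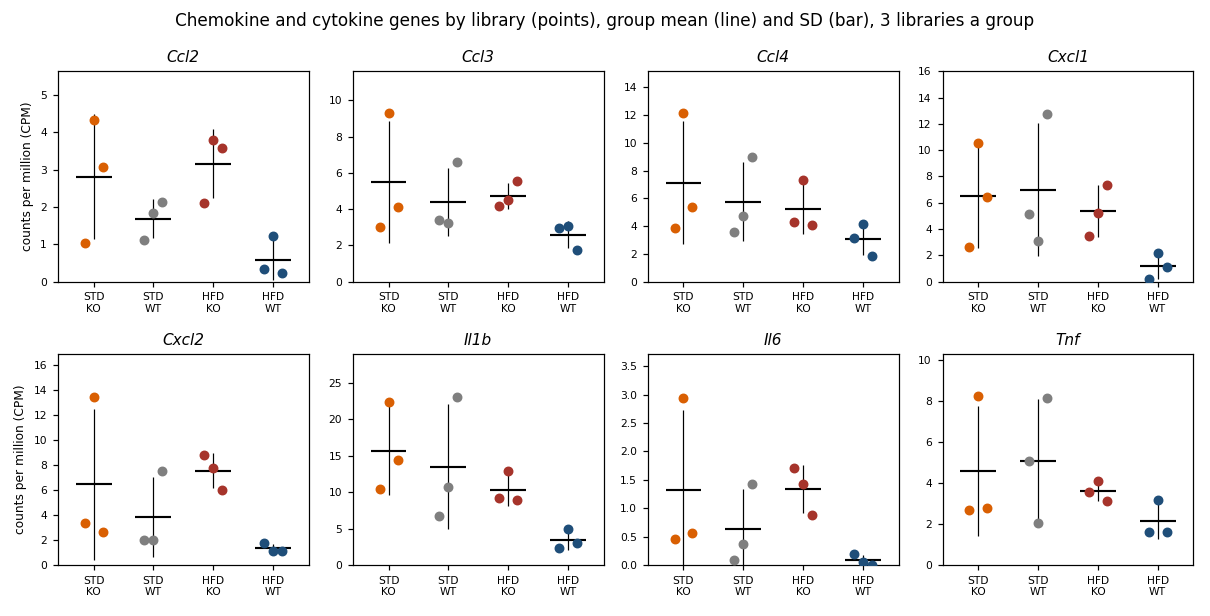
CPM (y axis, linear from 0) of 5 chemokine and 3 cytokine genes in each library of the 4 groups; points are libraries, lines group means and bars SD (3 libraries a group). Cxcl2 is at 6.03 to 8.79 CPM in HFD KO and 1.12 to 1.73 CPM in HFD WT, and in the standard diet groups 1 library a group, STD KO 2 or STD WT 3, is the highest for all 5 chemokines.

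NF-kappaB subunits, inhibitors and targets showed no call. Vcam1, the vascular adhesion molecule, had 10.0, 11.5 and 23.6 CPM in HFD KO and 1.1, 9.91 and 4.32 CPM in HFD WT, with each HFD KO library above each HFD WT library by a narrow margin (edgeR adjusted p = 0.146, log2 fold change 1.58, SE 0.61). Without HFD WT 2 it passed (log2 fold change 2.43, edgeR adjusted p = 0.0389). Nfkb1, the p105 subunit precursor, stood at 47.0, 51.9 and 67.9 CPM in HFD KO and at 49.7, 83.5 and 68.1 CPM in HFD WT, which overlap (edgeR adjusted p = 0.330, log2 fold change −0.27, SE 0.16). For the inhibitors Tnfaip3 and Nfkbia, the subunit Relb, the adhesion molecule Icam1 and the iron-binding protein gene Lcn2 the edgeR adjusted p lay between 0.418 and 0.974. DESeq2 called 10.4% of the genes it tested, both directions together, and 15 of the 37. Of these 15, 1 was lower and 14 were higher, among them Il6, Il1b, Cxcl1, Cxcl2 and Vcam1.

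**Figure D4:**
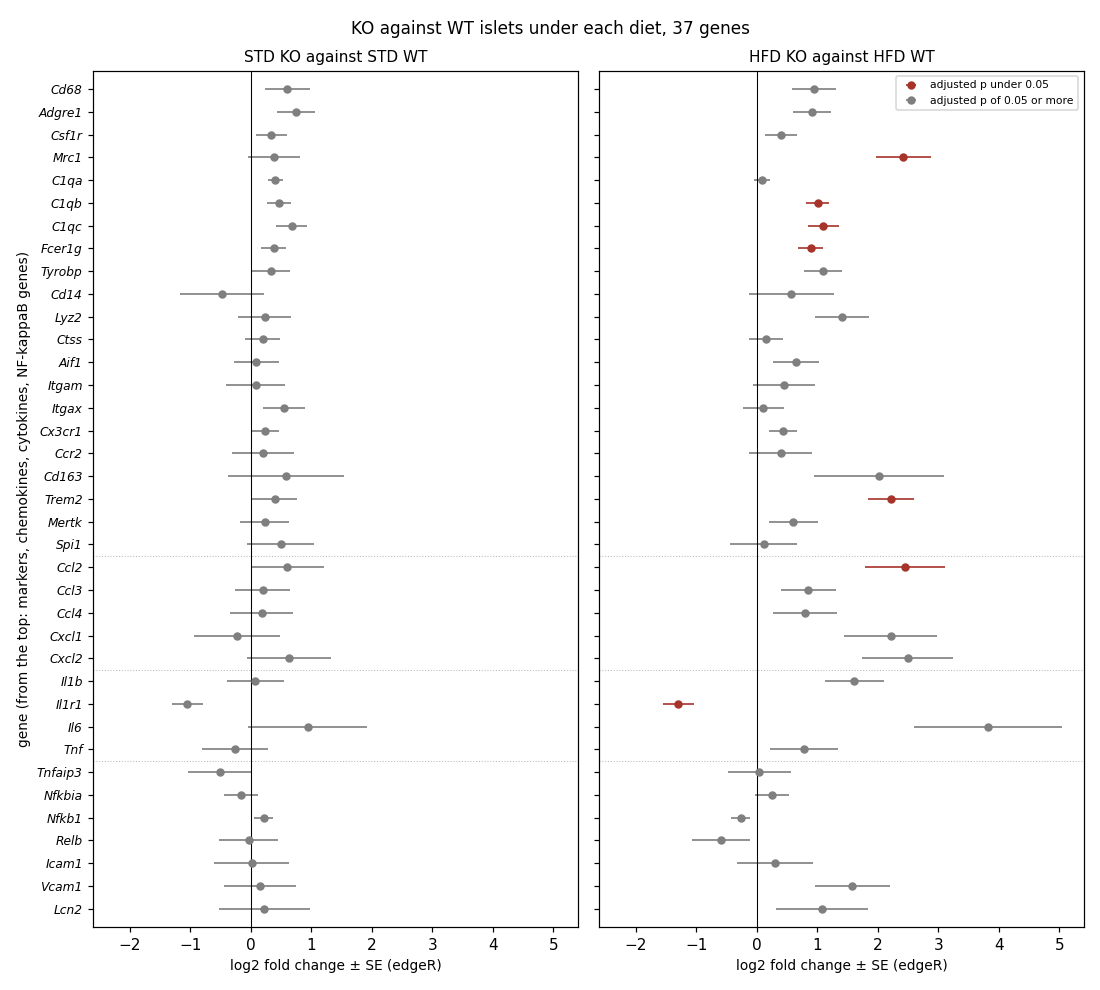
Log2 fold change with its SE (x axis) of each of the 37 genes in KO against WT islets under the standard diet (left) and the high fat diet (right), from edgeR; red points have an adjusted p under 0.05. No point is red under the standard diet, and under the high fat diet 6 genes are red above 0 and Il1r1 is red below it.

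Il1r1, the gene of the signalling receptor of interleukin-1 (chromosome 1, 40225080 to 40317257), fell. It had 181, 109 and 268 CPM in HFD KO and 469, 359 and 508 CPM in HFD WT, with no overlap, at a log2 fold change of −1.29 (SE 0.26, edgeR adjusted p = 0.0109). Under the standard diet it stood at 197, 163 and 253 CPM in STD KO and at 415, 405 and 326 CPM in STD WT, again apart, with −1.05 (SE 0.26, edgeR adjusted p = 0.0807). Non-overlap downwards under the standard diet held for 3.4% of all genes. All 6 KO libraries were below all 6 WT libraries, as for 1.35% of all genes. Of the 37, C1qb and C1qc were above in all 6, as for 4.44% of all genes. The high fat call was lost without HFD KO 1 (edgeR adjusted p = 0.0517) and in a fit of the compared groups alone (edgeR adjusted p = 0.0664). Under the standard diet the gene passed without HFD KO 2, HFD KO 3 or HFD WT 2 (edgeR adjusted p = 0.0220, 0.0457 and 0.0442).

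A transcript inside the same gene moved the other way. Gm38070 (chromosome 1, 40238020 to 40244499), a predicted unspliced transcript of unknown function that was chosen after its values were seen, lies on the same strand as Il1r1 in the first intron of an Il1r1 transcript with 11 exons and shares 0 exonic bases with the gene in GENCODE M21. It had 1543, 875 and 2108 CPM in HFD KO and 98.3, 60.3 and 119 CPM in HFD WT, and 1211, 1081 and 1737 CPM in STD KO and 138, 140 and 137 CPM in STD WT. KO libraries lay far above WT libraries under both diets, with log2 fold changes of 3.99 (SE 0.34, edgeR adjusted p = 6.29e-05) and 3.13 (SE 0.33, edgeR adjusted p = 0.000515). The ratio of Gm38070 to Il1r1 in FPKM was 4.5 to 4.87 in HFD KO and 0.0960 to 0.134 in HFD WT, and 3.52 to 3.93 in STD KO and 0.190 to 0.241 in STD WT. The labels give neither strand nor counting rule, so how reads of the intron were assigned was not tested.

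Il1rap, the accessory chain that interleukin-1 receptor signalling needs (chromosome 16, 26581704 to 26730117), was higher in KO islets. It had 21.1, 14.3 and 26.8 CPM in HFD KO and 5.37, 8.33 and 5.89 CPM in HFD WT, and 23.3, 16.3 and 22.6 CPM in STD KO and 6.27, 6.39 and 6.63 CPM in STD WT. No library overlapped between genotypes, and the log2 fold changes were 1.66 (SE 0.20, edgeR adjusted p = 0.00069) and 1.55 (SE 0.20, edgeR adjusted p = 0.00212), past the threshold in all 21 alternative fits. The ratio of Il1r1 to Il1rap in FPKM was 5.78 to 7.62 in HFD KO and 32.9 to 66.6 in HFD WT, and 6.43 to 8.53 in STD KO and 37.5 to 50.5 in STD WT. Il1r1 level was thus still above that of Il1rap in every library.

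**Figure D5:**
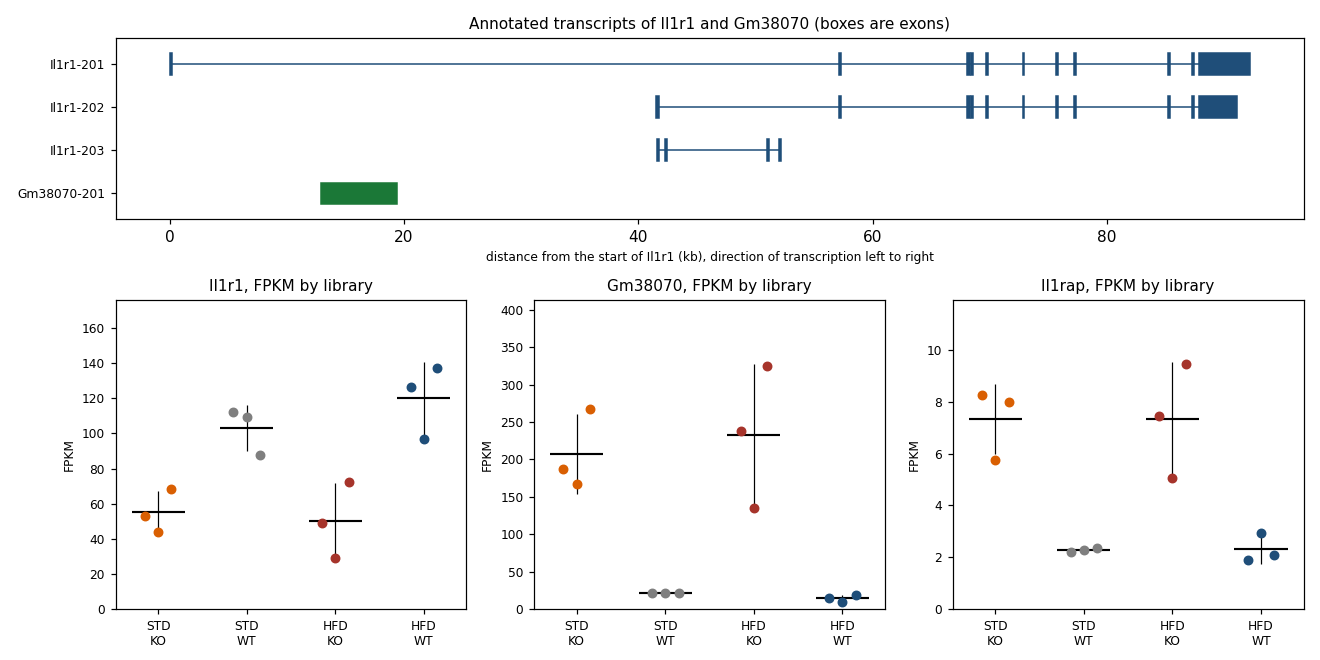
Top, annotated transcripts of Il1r1 and Gm38070 along the gene (x axis, kb from the start of Il1r1; boxes are exons); bottom, FPKM of Il1r1, Gm38070 and Il1rap in each library of the 4 groups (points), with group mean (line) and SD (bar), 3 libraries a group. KO libraries are below WT libraries for Il1r1 and above them for Gm38070 and Il1rap, under both diets.

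Under the standard diet no gene of the 37 passed in STD KO against STD WT in edgeR, where 1.71% of all genes did (1.34% higher and 0.367% lower). At an unadjusted p under 0.05 there were 5 genes (8.66% of all genes), and DESeq2 called Il1r1 (2.76% of the genes it tested). The log2 fold change was positive for 30 of 37 genes, with a median of 0.23, against 47% and −0.017 over all genes. Among the markers it was positive for 20 of 21, with Cd14 the exception. In CPM, without the scaling of the fit, 7 were higher in every STD KO library than in every STD WT library, against 14.3% of all genes. In CPM 0 markers were lower in every STD KO library, against 3.4% of all genes. C1qa had 108, 113 and 108 CPM in STD KO and 65.4, 79.2 and 81.4 CPM in STD WT. These did not overlap, at a log2 fold change of 0.41 (SE 0.13, edgeR adjusted p = 0.241). C1qc had 23.5, 17.4 and 24.9 CPM in STD KO and 7.87, 16.6 and 12.5 CPM in STD WT, at 0.67 (SE 0.25, edgeR adjusted p = 0.388). Cd14 was set apart by STD WT 1 at 38.0 CPM, against 5.85 and 8.33 CPM in STD WT 2 and 3.

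Chemokines followed single libraries under the standard diet. STD KO 2 was the highest of its group for all 5 and STD WT 3 for all 5, so Cxcl2 stood at 3.36, 13.4 and 2.62 CPM in STD KO and at 2.04, 2.01 and 7.53 CPM in STD WT, and the groups overlapped. Its log2 fold change was 0.63 (SE 0.70, edgeR adjusted p = 0.999) and turned to −0.58 without STD KO 2. Il6 likewise turned, with 0.94 (SE 0.98) against −0.53 without STD KO 2. Ccl2 had 1.02, 4.34 and 3.06 CPM in STD KO and 1.12, 1.83 and 2.12 CPM in STD WT, which overlap (edgeR adjusted p = 0.999, log2 fold change 0.61, SE 0.61). Of the NF-kappaB genes, Nfkb1 stood at 76.6, 58.8 and 89.7 CPM in STD KO and at 64.6, 56.2 and 55.6 CPM in STD WT, and Tnfaip3, an inhibitor of the pathway, at 40.8, 52.4 and 47.4 CPM in STD KO and at 64.8, 38.9 and 79.6 CPM in STD WT. Both overlapped, with log2 fold changes of 0.21 (SE 0.16, edgeR adjusted p = 0.924) and −0.51 (SE 0.52, edgeR adjusted p = 0.999).

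The effect of the diet was compared within each genotype. In HFD WT against STD WT, 0 of the 37 genes passed in edgeR, as did 0 of all genes (0%), 5 had an unadjusted p under 0.05 (4.74% of all genes) and DESeq2 called Il1b and Cxcl1 lower (0.321% of the genes it tested). In 6 genes every HFD WT library was lower than every STD WT library, against 5.91% of all genes, and in 0 every one was higher, against 3.45%. These 6 were Mrc1, Cd163, Ccl3, Cxcl1, Cxcl2 and Il1b. Il1b stood at 2.35, 4.98 and 3.09 CPM in HFD WT and at 6.75, 10.7 and 23.1 CPM in STD WT. These did not overlap, at a log2 fold change of −1.97 (SE 0.49, edgeR adjusted p = 0.685). Cxcl1 had 0.240, 2.19 and 1.12 CPM in HFD WT and 5.15, 3.11 and 12.7 CPM in STD WT, also apart, at −2.59 (SE 0.77, edgeR adjusted p = 0.886). Mrc1 had 0.911, 2.13 and 1.57 CPM in HFD WT and 2.77, 5.36 and 2.60 CPM in STD WT, apart at −1.21 (SE 0.44, edgeR adjusted p = 0.981). The 5 chemokines had negative values throughout, with a median of −1.50, and the 37 genes one of −0.44, against 0.007 over all genes. Positive values numbered 11 of 37, against 51.5% of all genes.

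The other genes among the 2 with the smallest p in their list overlapped between the diets. Ccl2 had 0.335, 1.22 and 0.225 CPM in HFD WT and 1.12, 1.83 and 2.12 CPM in STD WT, at a log2 fold change of −1.52 (SE 0.65, edgeR adjusted p = 1). Vcam1 had 1.1, 9.91 and 4.32 CPM in HFD WT and 8.94, 13.3 and 17.6 CPM in STD WT, at −1.41 (SE 0.61, edgeR adjusted p = 1). Il6 had 0.192, 0.0608 and 0 CPM in HFD WT and 0.0972, 0.365 and 1.43 CPM in STD WT, at −2.72 (SE 1.24, edgeR adjusted p = 1). Itgax and Nfkbia had 0.50 (SE 0.35) and −0.46 (SE 0.28), each at an edgeR adjusted p of 1, and no direction can be read from these genes.

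In HFD KO against STD KO, 0 of the 37 passed in edgeR, against 0.0435% of all genes; 5 had an unadjusted p under 0.05 (12.5% of all genes), and DESeq2 called Trem2 higher (0.806% of the genes it tested). In 3 genes, Fcer1g, Tyrobp and Trem2, every HFD KO library was higher than every STD KO library, against 3.51% of all genes, and in C1qa every one was lower, against 9.82%. Trem2 stood at 6.35, 3.55 and 4.42 CPM in HFD KO and at 1.99, 2.26 and 1.5 CPM in STD KO, apart, at a log2 fold change of 1.49 (SE 0.37, edgeR adjusted p = 0.295). Fcer1g had 15.2, 14.3 and 11.1 CPM in HFD KO and 10.4, 8.91 and 10.3 CPM in STD KO, also apart, at 0.65 (SE 0.20, edgeR adjusted p = 0.340; 0.0346 without HFD KO 3). C1qa had 72.1, 69.8 and 84.8 CPM in HFD KO and 108, 113 and 108 CPM in STD KO, at −0.37 (SE 0.13, edgeR adjusted p = 0.343). Among chemokines and cytokines, Ccl2, Ccl4, Il1b and Tnf overlapped, with log2 fold changes of 0.32, −0.29, −0.43 and −0.19 (edgeR adjusted p from 0.746 to 0.926), and so did Nfkb1 and Relb, a further NF-kappaB subunit, at −0.26 and −0.34 (edgeR adjusted p = 0.513 and 0.814). The sign of Ccl2, Ccl4 and Tnf turned when STD KO 1 (Ccl2) or STD KO 2 (Ccl4 and Tnf) was left out. Both comparisons of diet share libraries with the comparisons of genotype.

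Whether the genotype acted differently under the diets was tested by the interaction. No member passed in edgeR, nor did any gene (0%); 4 members had an unadjusted p under 0.05 (7.91% of all genes), and DESeq2 called none of the 37 and 0.0949% of the genes it tested. Trem2 and Mrc1 had interaction terms of 1.83 (SE 0.54) and 2.04 (SE 0.61), each at an edgeR adjusted p of 0.621. Cxcl1 and Il1b had 2.44 (SE 1.04) and 1.54 (SE 0.67), at the same adjusted p of 0.621 in edgeR. Ccl2, Il6, Vcam1 and Nfkb1 had 1.84 (SE 0.89), 2.88 (SE 1.57), 1.42 (SE 0.85) and −0.48 (SE 0.22), at edgeR adjusted p from 0.621 to 0.641. The term was positive for 30 of 37 genes, with a median of 0.54, against 8176 of 16076 genes tested, with a median of 0.01. A difference of the genotype effect between the diets was not shown for any member.

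Other macrophage and signalling genes were read from lists of the same biology. Among 30 further macrophage genes, 2 rose in HFD KO against HFD WT, near the 3.9% of all genes, and none fell. Fcgr3, a low-affinity Fc receptor that signals through the chain of Fcer1g, had 8.22, 4.18 and 6.39 CPM in HFD KO and 1.97, 1.64 and 2.53 CPM in HFD WT, apart, at a log2 fold change of 1.61 (SE 0.33, edgeR adjusted p = 0.0117; 0.0657 without HFD KO 1). Lgals3, galectin-3 of phagocytes, had 31.5, 13.5 and 14.9 CPM in HFD KO and 3.21, 7.29 and 5.56 CPM in HFD WT, also apart, at 1.95 (SE 0.44, edgeR adjusted p = 0.0209). It did not pass without HFD KO 1, HFD WT 1 or HFD WT 3 (edgeR adjusted p = 0.0979, 0.0756 and 0.0795) or with the block (edgeR adjusted p = 0.0838). With the groups compared alone neither Fcgr3 nor Lgals3 passed (edgeR adjusted p = 0.0507 and 0.0642). With the block Lyz1, a second lysozyme gene, and Clec7a, the beta-glucan receptor, passed (log2 fold change 1.33 and 1.66, edgeR adjusted p = 0.00979 and 0.0442). Of 7 genes of antigen presentation none passed, with a median of −0.28.

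Of 15 further chemokine and growth factor genes tested among 18 listed, Ccl9 and Ccl6 rose and Cx3cl1 fell in HFD KO islets, where 3.9% of all genes rose and 3.5% fell. Ccl9, a chemokine of mouse myeloid cells, had 10.6, 5.80 and 6.86 CPM in HFD KO and 0.575, 2.07 and 1.80 CPM in HFD WT, apart, at a log2 fold change of 2.44 (SE 0.44, edgeR adjusted p = 0.00603). Ccl6 followed at 2.04 (SE 0.48, edgeR adjusted p = 0.0261), and lost its call without HFD KO 1, HFD WT 1 or HFD WT 3 (edgeR adjusted p = 0.126, 0.0831 and 0.0696) and with the block (edgeR adjusted p = 0.0811). A fit of the groups alone ended the Ccl6 call too (edgeR adjusted p = 0.0511). Cx3cl1, the ligand of Cx3cr1, had 11.9, 10.3 and 16.6 CPM in HFD KO and 16.8, 27.0 and 25.7 CPM in HFD WT, apart, at −0.84 (SE 0.17, edgeR adjusted p = 0.0136), a call lost without HFD KO 1, HFD KO 2 or HFD WT 3 (edgeR adjusted p = 0.0678, 0.0551 and 0.0599), without STD WT 3 and HFD KO 2 together (edgeR adjusted p = 0.0919), with the groups alone (edgeR adjusted p = 0.0699) and with limma-trend (adjusted p = 0.0547). Il6ra, a chain of the interleukin-6 receptor, was lower with the block (log2 fold change −0.89, edgeR adjusted p = 0.0179). Cx3cr1, the receptor gene for Cx3cl1, spans other annotated genes on both strands, and how reads shared with them were assigned was not tested.

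In the list of 32 genes of NF-kappaB, interleukin-1 and tumour necrosis factor signalling, Il1rap and Tnfrsf1a rose under both diets and none fell. Of all genes 3.9% rose under the high fat diet and 1.34% under the standard diet. Tnfrsf1a, the main receptor of tumour necrosis factor, had 51.2, 48.3 and 74.8 CPM in HFD KO and 34.7, 40.2 and 43.3 CPM in HFD WT, and 70.7, 66.5 and 73.3 CPM in STD KO and 48.3, 39.5 and 39.8 CPM in STD WT. The libraries did not overlap in either diet, at log2 fold changes of 0.55 (SE 0.12, edgeR adjusted p = 0.0174) and 0.59 (SE 0.12, edgeR adjusted p = 0.0296). Offsets corrected for gene length ended both calls (edgeR adjusted p = 0.476 and 0.403). The high fat call was also lost without HFD WT 1 (edgeR adjusted p = 0.0754), with the groups alone (edgeR adjusted p = 0.134) and with limma-trend (adjusted p = 0.0839). Under the standard diet it was lost without any 1 of the 6 STD libraries (edgeR adjusted p from 0.0688 to 0.148) or without HFD WT 1 (edgeR adjusted p = 0.0508), with no filter (edgeR adjusted p = 0.0793), without STD WT 3 and HFD KO 2 together (edgeR adjusted p = 0.0761) and with limma-trend (adjusted p = 0.0572).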

How the data were processed

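RNA-seq of 12 islet libraries was analysed from 2 kinds of deposited values: counts of reads per gene and FPKM, both made by the authors. Per the submitters' processing notes, reads were handled with TopHat2, Cufflinks and DESeq on build mm10; no source used here gives versions, counting tool, annotation or strand. The deposited FPKM equalled count divided by length and library total in each of 257939 nonzero cases (tolerance 1e-04). CPM is the count over the library total, times 1e6. It leaves out the TMM factors given below, and whether libraries overlapped was read from CPM, so narrow cases could change with scaling. Symbols came by Ensembl ID (54409 of 54532), coordinates from GENCODE M21 and promoters from RefSeq.

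Counts were tested with edgeR 4.0.16 (limma 3.58.1, R 4.3.3): TMM scaling, filterByExpr (minimum count 10, total 15; 16076 genes), robust quasi-likelihood with 1 mean per group and Benjamini-Hochberg adjustment over all genes, threshold 0.05. TMM factors were 0.894 to 1.14 and the common biological coefficient of variation 0.307. The procedure was tested on simulated data. Alternatives were DESeq2 1.42.0 size factors and Wald test, no filter, 1 CPM in 6 libraries, offsets corrected for gene length, groups alone, the library number as a block, limma-trend on log2(FPKM + 1) with a mean FPKM of at least 0.5, and leaving out libraries. Deviations from group means of same-numbered HFD KO and HFD WT libraries correlated across genes (r = 0.515, 0.41 and 0.336), and the block used these numbers. Differently numbered libraries of other groups also correlated, such as HFD WT 2 with STD WT 1 (r = 0.518) and HFD WT 1 with STD WT 3 (r = 0.416). Such correlations do not show that libraries were paired, so calls of the blocked fit rest on an assumed pairing.

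Members, lists and the naming rule were chosen with earlier results of these data known. The rule gave full values to members past the threshold, to the 2 of each member list with the smallest p per comparison, and to at most 3 called genes per direction of the pathway lists; other genes (Gm38070, Il1r2 and members beyond the rule) were chosen after their values were seen; 12 members overlap another annotated gene. The totals make counting error small except for genes of few counts.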

Additional observations from a re-analysis of the deposited data

How the results depend on the processing

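Over 54 pairs of gene and comparison, 1121 alternative fits gave 1035 on the same side of the threshold with the same sign, 24 that passed where the first fit did not, 56 that no longer passed and 6 of opposite sign. Most of these pairs did not pass in the first fit, and the 56 come only from the pairs that did. The pooled count therefore does not measure how stable the calls were. For the members that rose in HFD KO against HFD WT, the count of 6 became 14 with DESeq2 and 3 to 10 with a library left out; the 1 that fell became 0 with the groups compared alone and 0 to 1 with a library left out. In STD KO against STD WT, 1 gene, Il1r1, was lower with no filter, with length-corrected offsets, with the groups alone, with the replicate block, without STD WT 3 and HFD KO 2 together and with DESeq2, and 0 to 1 with a library left out; 1 gene, C1qa, was higher with limma-trend, and 0 to 0 with a library left out. In HFD WT against STD WT, DESeq2 called 2 lower, and leaving out a library gave 0 to 0. In HFD KO against STD KO, DESeq2 called 1 higher, as did edgeR without HFD KO 3 (Fcer1g; range 0 to 1). The interaction gave 0 to 0.

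With a library left out, sign turned in STD KO against STD WT for Cxcl2 (range −0.58 to 1.62) and Il6 (−0.53 to 2.45), and in HFD KO against STD KO for Ccl4 (−0.67 to 0.42), Ccl2 (−0.071 to 0.85) and Tnf (−0.47 to 0.63, and 0.031 with the replicate block); the cause was not tested. The blocked fit of HFD KO against HFD WT called 9 higher. In the other comparisons the same-number correlations were −0.00396, −0.175 and −0.234 (STD KO and STD WT), −0.4, −0.107 and 0.0114 (HFD WT and STD WT) and −0.114, 0.186 and 0.0929 (HFD KO and STD KO). In these comparisons the block gave no call of a member other than Il1r1. Genes of few counts, such as Il6 and Cd163, are limited by depth.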

Other observations

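Other immune and islet cell genes were read from their marker lists. Lymphocyte markers had a median log2 fold change of −0.55 in HFD KO against HFD WT, with 0 of 13 past the threshold in edgeR, and 7 genes of antigen presentation summed to 640, 1560 and 881 CPM in HFD KO and 310, 2672 and 968 CPM in HFD WT. The neutrophil and monocyte list had 0 of 5 tested genes past the threshold. Of the beta cell list 2 of 11 (Ucn3 and Slc30a8) fell in HFD KO against HFD WT, where 3.5% of all genes fell. With the block 4 of 11 fell (Nkx6-1 and Slc2a2 in addition), where 667 of 16076 genes fell. The log2 fold change without the block was positive for 4 of the 11 beta cell genes (median −0.38). Acinar, erythrocyte, endothelial and ductal lists had no call in edgeR: acinar genes were positive in 0 of 11 (median −0.43), erythrocyte genes in 5 of 5 (0.34), endothelial genes in 9 of 12 (0.19) and ductal genes in 6 of 11 (0.23).

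Il1r2, the decoy receptor of interleukin-1, chosen after its values were seen, had 14.7, 17.1 and 9.82 CPM in HFD KO and 7.72, 8.08 and 6.51 CPM in HFD WT. The groups were apart, at a log2 fold change of 0.93 (SE 0.35, edgeR adjusted p = 0.135).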
